A study of Mus musculus with 63 samples.

Results

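Lymphomas with high expression of Igll1, the surrogate light chain gene of precursor B cells, were compared with lymphomas in which it was low, among native (untreated) Eµ-myc lymphomas. The groups were chosen by Igll1 itself: of 32 native arrays, the 10 with the highest and the 10 with the lowest value were taken after subtracting the mean of the arrays labelled from the same amount of RNA (100 or 300 ng). The 12 native arrays between them were set aside, and the whole series holds 63 arrays. All samples were lymph node lymphoma cells of Emu-myc transgenic mice on the C57BL/6 background, in which a Myc transgene is driven by the immunoglobulin heavy-chain enhancer. The other 31 arrays, labelled CTX 4h, came from mice given cyclophosphamide (300 mg/kg where the labels state the dose), and the same rule was applied to them as a second set of arrays that the native choice did not use. Cells went to RNA extraction without purification, so other cells of the node contribute. The labels do not settle whether the native material came from the transgenic mouse or from a transplant recipient. Each array bore a lymphoma number of its own, but no label ties each to its own animal. The p-values therefore speak only of the spread between these samples, which may be technical.

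The pre-B-cell receptor forms when a newly rearranged immunoglobulin heavy chain pairs with the surrogate light chain, which is built from the products of Igll1 (lambda 5) and Vpreb1 or Vpreb2. Cells at this stage depend on interleukin 7, carry the surface peptidase encoded by Enpep (BP-1) and the ectoenzyme encoded by Bst1 (BP-3), and have used the RAG recombinase to join heavy-chain gene segments. When a conventional light chain replaces the surrogate one the cell becomes a B cell, and genes for CD20 (Ms4a1), CD21 (Cr2), CD23 (Fcer2a) and high surface MHC class II mark the later, mature stages. Eµ-myc mice are known to give tumours of both stages.

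Igll1 is a description here, since it chose the arrays. Its deposited log2 level ran from 8.16 to 13.41 in the high group and from 4.80 to 7.36 in the low group. After centring within RNA input it fell off in steps, with lymphomas 1113, 9193 and 9201 at 4.06, 3.98 and 3.92 and the next, 1120, at 2.21. The last array inside the high group (lymphoma 8747) was at 0.55 and the first outside it (1112) at 0.51. At the other end lymphoma 8737 entered the low group at -1.14, just below lymphoma 9184 at -1.06, and lymphoma 9174 was lowest at -4.55. Both limits thus cut a continuous range.

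**Figure D1:**
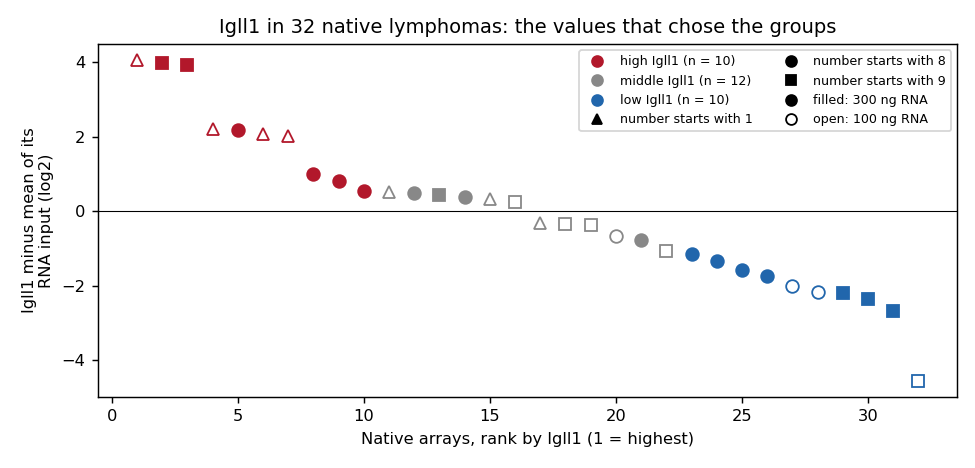
Igll1 in the 32 native arrays, in order of rank (x axis), as the log2 value minus the mean of its RNA input (y axis). Colour gives the group, shape the digit with which the lymphoma number starts, and open symbols the 100 ng arrays; the 3 highest arrays stand near 4, and every open symbol of the high group is a triangle.

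A property of the samples moves with the groups and bears on each result. All 4 high arrays labelled from 100 ng had lymphoma numbers starting with 1, and all 3 low ones at 100 ng had numbers starting with 8 or 9, so at 100 ng number series and Igll1 group cannot be told apart. What the number series stands for is not stated. The 300 ng arrays are balanced, with 4 high arrays of series 8 and 2 of series 9 against 4 and 3 low arrays, and differences within them are given beside the called genes and lists described in detail. A score of 10 small nucleolar RNA genes (mean of the centred log2 values) lay between -2.86 and -2.12 in the 4 series 1 arrays of the high group. It lay between -0.24 and 0.78 in the 6 other high arrays and between -0.19 and 0.94 in the low group. The mitosis score ran from 0.56 to 1.05 in those series 1 arrays, from -2.03 to 0.79 (median 0.35) in the other high arrays, which overlap them, and from -0.10 to 0.37 in the low group. The part of either in the results was not tested beyond the models named below. Lymphoma 8740 of the high group stood apart, with Myc at 10.64 where the next lowest high array had 12.95. In the low group lymphomas 9196 and 9174 stood apart in B-lineage genes: Ebf1 was at 8.09 and 9.05 there against 10.10 to 12.17 in the 8 others, and Cd24a at 8.93 and 10.28 against 11.74 to 13.50.

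Across 19937 genes, limma called 258 higher (1.29% of genes tested) and 35 lower (0.176%) in the high group, at an adjusted p under 0.05 with RNA input in the model. Unadjusted p-values were under 0.05 for 3155 genes. Of the called genes, 62 higher and 9 lower ones differed by at least 1 on the log2 scale. The calls depended on the number series. With the first digit as a term the same groups gave 0 calls (1058 genes at an unadjusted p under 0.05). The 300 ng arrays alone gave 0 as well (1041 genes, smallest adjusted p = 0.0874). In neither fit do the series 1 arrays, all of the high group, inform the difference, so fewer arrays bear on it. Single arrays moved the counts too. Without lymphoma 8740 they were 2111 higher and 350 lower, and without lymphomas 9174 and 9196 they were 17 and 1. A model of all 32 native arrays with Igll1 as a number and the first digit as a term called 56 genes that went up with Igll1 (0.281%) and 20 that went down (0.1%), and 50 of these 76 were also called between the groups. A gene for which this second model passed is described below by its slope, the change in its log2 level per log2 unit of Igll1.

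The surrogate light chain partners of Igll1 come first. Vpreb1, whose product forms the other subunit of the surrogate light chain, was at 6.37 at lowest, 7.25 at the median and 8.39 at highest in the high group. In the low group the same values were 5.18, 6.05 and 6.41. All 10 high arrays lay above the low median, and only lymphoma 8734 fell inside the range of the low group. The difference was 1.46 ± 0.26 (SE, adjusted p = 0.0128), it was 1.62 in the 300 ng arrays, and it passed in 20 of 20 fits that left out 1 array. Its slope on Igll1 with number series in the model was 0.41 ± 0.04 (SE, adjusted p = 3.43e-07). Within the low group Vpreb1 ran from 5.18 to 5.65 in the 4 series 9 arrays and from 5.92 to 6.41 in the 6 series 8 arrays. Vpreb2, the near-identical copy of Vpreb1, differed by 0.40 ± 0.11 (SE, adjusted p = 0.0706) and its slope of 0.13 passed (adjusted p = 4.06e-04). Probes of such copies can share signal, so how the difference divides between them is uncertain. Vpreb3, whose product binds light chains inside the cell, had medians of 12.78 and 11.40, a difference of 1.46 and an adjusted p of 0.269. In the low group it ranged from 7.61 in lymphoma 9196 to 12.93 in lymphoma 9205, which overlaps most of the high group.

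The stretches upstream of the start sites of Igll1, Vpreb1 and Vpreb2 are shown because the 3 genes encode the parts of one receptor and because Igll1 and Vpreb1 are neighbours. They are the 250 bases before the start in RefSeq (assembly GRCm38.p6), written 5′ to 3′ on the strand of the gene, at chr16:16863986-16864235 (minus strand), chr16:16869256-16869505 (minus strand) and chr16:17980315-17980564 (plus strand). Capitals mark the E-boxes CAGCTG and CAGGTG on either strand (CAGGTG reads CACCTG on the other), the kind of site to which the E2A proteins bind.
Igll1: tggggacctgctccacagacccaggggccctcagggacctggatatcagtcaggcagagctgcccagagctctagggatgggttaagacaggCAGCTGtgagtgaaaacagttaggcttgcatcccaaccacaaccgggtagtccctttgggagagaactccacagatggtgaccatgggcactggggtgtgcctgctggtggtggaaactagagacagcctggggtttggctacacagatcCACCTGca
Vpreb1: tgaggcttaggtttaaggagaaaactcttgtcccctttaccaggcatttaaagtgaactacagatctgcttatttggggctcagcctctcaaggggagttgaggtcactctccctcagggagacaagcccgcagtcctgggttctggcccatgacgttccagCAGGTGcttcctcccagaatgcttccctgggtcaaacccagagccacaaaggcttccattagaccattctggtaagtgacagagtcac
Vpreb2: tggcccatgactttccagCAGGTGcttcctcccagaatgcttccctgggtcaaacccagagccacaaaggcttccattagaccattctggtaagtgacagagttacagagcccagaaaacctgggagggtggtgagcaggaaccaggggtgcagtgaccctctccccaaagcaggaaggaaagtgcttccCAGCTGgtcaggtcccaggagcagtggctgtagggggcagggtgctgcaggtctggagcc
Igll1 held CAGCTG starting 158 bases and CAGGTG starting 8 bases before the start site. Vpreb1 held CAGGTG at 88 bases, and Vpreb2 held CAGGTG at 232 and CAGCTG at 60 bases. The longest run of bases shared by the Vpreb1 and Vpreb2 stretches was 91, whereas Igll1 shared no run over 10 with either. Of all 32851 stretches of that length, 4271 held CAGCTG, 5657 held CAGGTG and 9113 (27.7%) held either. Of the 16 surrogate light chain and V(D)J recombination genes with such a stretch, Igll1 included, 7 had an E-box in any of their stretches. That count is by gene, and some genes have several stretches, whereas the 27.7% is by stretch. A match of letters is a description, and its absence says only that these letters are not in the window.

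Igll1, Vpreb1 and Top3b follow each other on chromosome 16 among the genes measured. Top3b, which encodes a topoisomerase, was one of the 5 genes whose level was most like that of Igll1 over the 31 CTX 4h arrays (Pearson r = 0.82). In native lymphomas it ran from 9.51 to 11.06 (median 10.20) in the high group and from 9.02 to 9.71 (median 9.38) in the low group, so the groups overlapped slightly. The difference was 0.82 ± 0.15 (SE, adjusted p = 0.0130), and 0.60 at 300 ng. The next gene along, Ppm1f, differed by 0.37 (adjusted p = 0.339) and the gene on the other side of Igll1, Spag6l, by -0.06 (adjusted p = 0.767). These neighbours were looked at after the value of Top3b was seen.

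Of 21 precursor B-cell markers measured, 5 were called higher in the high group and none lower, beside 1.29% and 0.176% of all genes. The markers had 19 positive differences. Their median difference was 0.93, against 0.02 over all genes tested; it was 0.85 in the 300 ng arrays (all genes 0.03). Il7r, which encodes the receptor chain for interleukin 7, had a lowest, median and highest value of 10.47, 11.27 and 12.15 in the high group. In the low group these were 6.73, 9.14 and 11.10, with lymphoma 8753 lowest. Every high array lay above the low median, and the low arrays reached into the high range through lymphomas 8773 and 9205. The difference of 2.16 ± 0.43 (SE, adjusted p = 0.0179) was 2.27 at 300 ng. The BP-1 gene Enpep was at 7.21, 9.39 and 10.38 in the high group and at 5.22, 5.74 and 9.46 in the low group. Its groups would not overlap but for lymphoma 8751, which at 9.46 was far above the next low array at 6.95. Enpep differed by 2.84 ± 0.50 (SE, adjusted p = 0.0127), by 2.18 at 300 ng, and passed in 20 of 20 fits that left out 1 array. Bst1 was at 7.93, 8.81 and 11.11 against 5.54, 7.02 and 9.46, a difference of 1.94 ± 0.46 (SE, adjusted p = 0.0399), and of 1.52 at 300 ng. The high arrays split in Bst1, with 1113, 1114, 1120 and 9201 at 10.54 to 11.11 and the other 6 between 7.93 and 9.04. Its call held in 9 of 20 fits that left out 1 array, and its slope did not pass.

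Sox4, a transcription factor needed for early B-cell survival, was at 7.52, 8.80 and 9.76 in the high group and at 6.36, 7.24 and 8.14 in the low group. It differed by 1.52 ± 0.28 (SE, adjusted p = 0.0144), and by 1.09 at 300 ng. Arpp21, the host gene of a microRNA, differed by 1.45 ± 0.35 (SE, adjusted p = 0.0427) and by 1.31 at 300 ng, with a call in 8 of 20 fits that left out 1 array. The difference was carried by part of the group: lymphomas 1113, 1120, 9193, 9201 and 8742 had 6.74 to 8.29, and the other high arrays 5.33 to 5.78 where the low group reached 5.50. Within the low group Arpp21 ran from 4.32 to 4.82 in the 4 series 9 arrays and from 5.20 to 5.50 in the 6 series 8 arrays. Erg, an ETS factor of early progenitors, had medians of 8.15 and 7.29 and missed the threshold between the groups (difference 1.25, adjusted p = 0.0512). Its slope passed (0.36 ± 0.05, SE, adjusted p = 2.36e-04). The slopes of Il7r (0.42), Enpep (0.57), Sox4 (0.33) and Arpp21 (0.39) passed as well, so 5 of the 21 markers passed that model. Over all genes 0.281% went up with Igll1 in that model and 0.1% went down. The remaining markers did not pass between the groups, among them Lef1 (1.51, adjusted p = 0.121), Cd24a (1.22, adjusted p = 0.144), Gfra2 (1.06, adjusted p = 0.0913), Cd93 (0.91, adjusted p = 0.384), Mme (0.74, adjusted p = 0.250), Kit (0.46, adjusted p = 0.261) and Cd34 (0.45, adjusted p = 0.280). Flt3, the receptor of the earliest lymphoid progenitors, and Spn, which encodes CD43, had negative differences of -0.63 and -0.14.

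**Figure D2:**
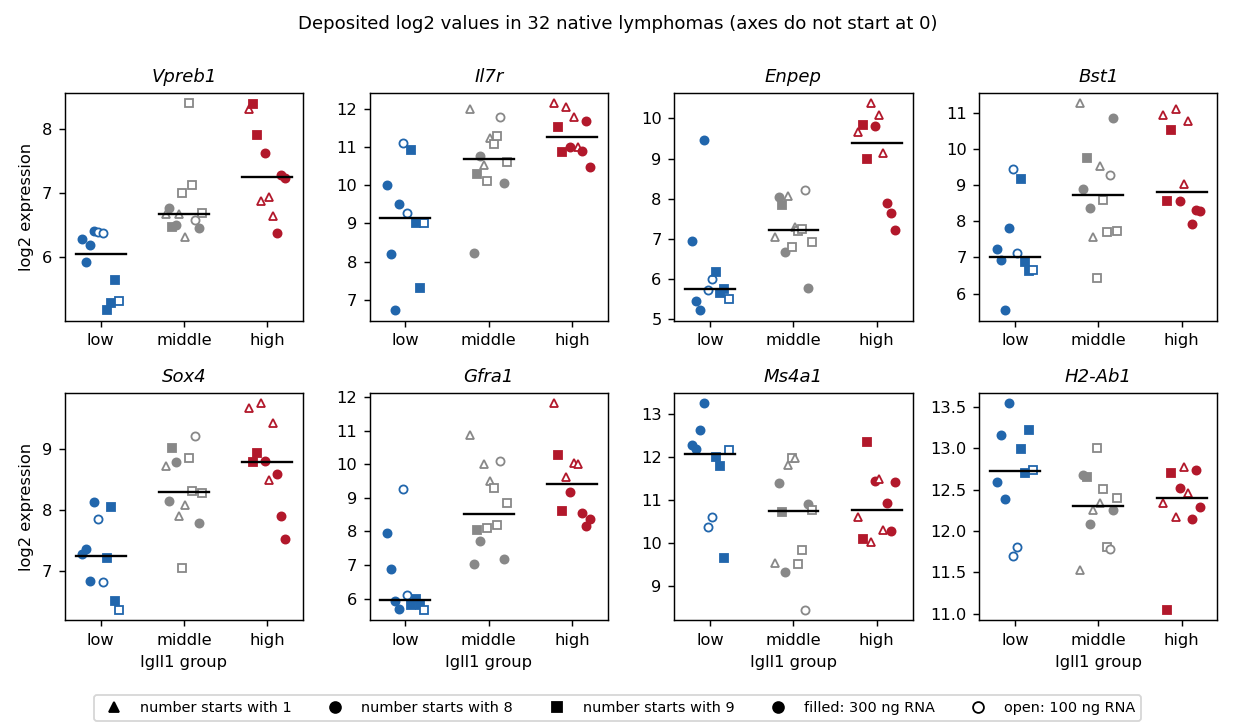
Deposited log2 level (y axis) of 8 genes in the low, middle and high Igll1 groups of native lymphomas (x axis); each symbol is 1 array, black bars are medians, and shapes and filling give number series and RNA input. Vpreb1, Il7r, Enpep, Bst1, Sox4 and Gfra1 are higher in the high group, while Ms4a1 and H2-Ab1 overlap widely.

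The V(D)J recombination genes were not called between the groups in either direction (0 of 14; median difference 0.41, and 0.14 at 300 ng). Over all genes tested 1.29% were called higher and 0.176% lower, and at those shares 14 genes hold few calls or none. Rag1, a recombinase subunit, was at 5.88, 7.63 and 10.93 in the high group and at 5.66, 5.97 and 10.03 in the low group (difference 1.01, adjusted p = 0.452). Both groups held arrays at the floor and arrays far above it, with lymphomas 1113, 1114 and 1120 above 9 among the high arrays and lymphoma 8773 at 10.03 among the low ones. Rag2 followed Rag1 in these arrays, with 7.80 in lymphoma 1113 and 7.99 in 8773, and differed by 0.72 (adjusted p = 0.487). Dntt encodes terminal transferase, which adds bases at the joints. It was at 11.97 in lymphoma 1113 and 8.46 in 9193, and at 5.14 to 6.22 in the other 8 high arrays, against 4.12 to 5.86 in the low group. The low values of Dntt also split by number series, at 4.12 to 4.42 in series 9 and 4.63 to 5.86 in series 8. Its difference was 1.77 (adjusted p = 0.154), and its slope of 0.47 passed (adjusted p = 0.0258). The heavy-chain constant gene Ighm differed by 1.47 ± 0.76 (SE, adjusted p = 0.364). Its 3 probe sets gave 1.47, 0.28 and 0.86.

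The other side of the label was not borne out by called genes. Of 22 mature B-cell markers, 2 were called, both higher in the high group, and none was lower. Over all genes tested 1.29% were called higher and 0.176% lower. At that share a list of 22 holds few lower calls or none, so their absence is no result about these markers. The median difference of the 22 was -0.04 beside 0.02 over all genes, with 11 of the 22 positive. At 300 ng it was -0.17 beside 0.03, with 9 of the 22 positive. With number series in the model 7 of the 22 slopes on Igll1 were positive, beside 11219 of all 19937. Ms4a1 was at 10.03, 10.76 and 12.35 in the high group and at 9.65, 12.06 and 13.24 in the low group. The ranges overlapped almost whole, and the difference of -0.73 ± 0.38 (SE, adjusted p = 0.369) did not pass. Cr2 had medians of 7.95 and 7.03 and Fcer2a of 8.26 and 7.21, that is, higher in the high group, with adjusted p-values of 0.415 and 0.468. At 300 ng the medians of Cr2 were 7.24 in the high and 7.32 in the low group, so that gap was not seen there. The called markers were Tnfrsf13c and Cd37. Tnfrsf13c encodes the BAFF receptor and is 1 of 6 genes among all 19937 whose groups do not overlap: it was at 11.05, 11.54 and 12.16 against 9.21, 10.55 and 10.99. Its difference was 1.17 ± 0.21 (SE, adjusted p = 0.0130), and 1.002 at 300 ng. Cd37, a tetraspanin of B cells, differed by 0.69 ± 0.16 (SE, adjusted p = 0.0395), but by 0.45 at 300 ng. Its call held in 7 of 20 fits that left out 1 array, and its slope did not pass (adjusted p = 0.501). So the low group is here called by its rule, low Igll1, and not mature.

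MHC class II presentation was not called either (0 of 13 genes, where 1.29% of all genes were called higher and 0.176% lower). At those shares 13 genes hold few calls or none. The median difference was -0.15. At 300 ng the median was -0.41 and 11 of 13 differences were negative, with H2-Ab1 at -0.70 and Ciita, the master regulator of the class, at -0.60. H2-Ab1 lay between 11.04 and 12.73 in the 6 high arrays of 300 ng and between 12.39 and 13.54 in the 7 low ones, with medians of 12.40 and 12.98. Over all 20 arrays it differed by -0.34 (adjusted p = 0.509). In the model with Igll1 as a number 1 class II list gene, Ifi30, a lysosomal thiol reductase, went down with Igll1 (slope -0.18, adjusted p = 0.0353).

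**Figure D3:**
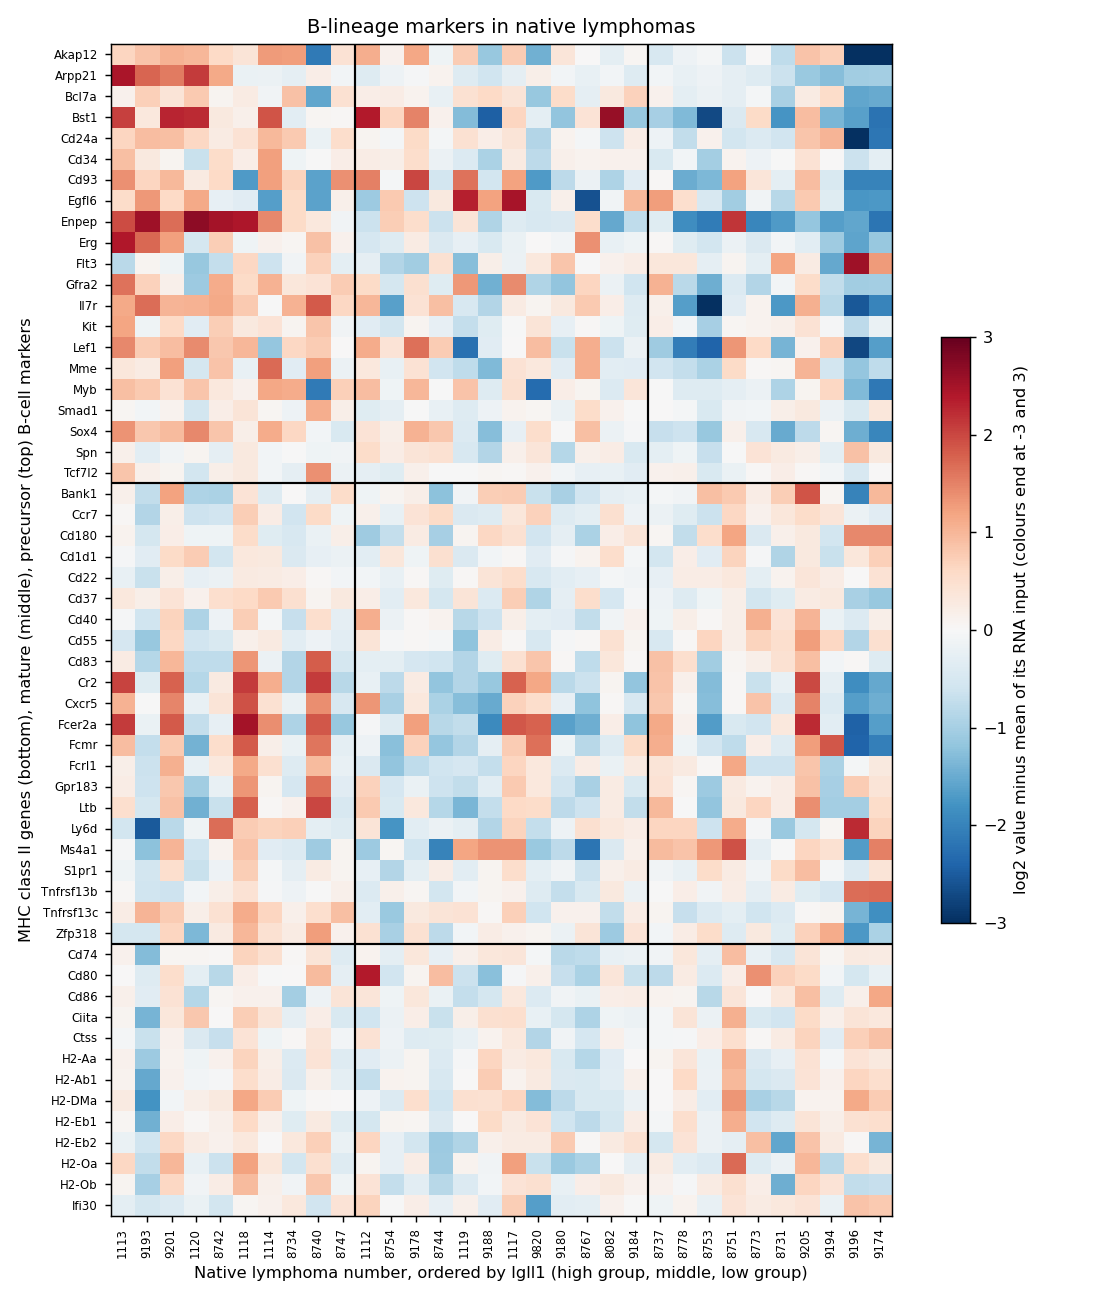
Log2 values minus the mean of their RNA input (colour scale, ends at -3 and 3) for 21 precursor markers, 22 mature markers and 13 MHC class II genes (rows) in the 32 native lymphomas in order of Igll1 (columns; vertical lines bound the groups). Precursor markers such as Enpep and Il7r are mostly red on the left and blue on the right, whereas mature markers vary within both groups, and lymphomas 9196 and 9174 on the far right are low in Cd24a.

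Both groups expressed general B-cell genes. Cd79b, a signalling chain of the B-cell receptor, ranged from 12.70 to 13.42 in the high and from 12.38 to 13.16 in the low group. Of 11 pan-B-cell markers 0 were called. Over all genes tested 1.29% were called higher and 0.176% lower, so a list of 11 holds few calls or none. Cd79a was at 8.38 in lymphoma 9196 and at 11.56 or more in every other native array of the low group. Ebf1, the factor that sets up the B-cell program, had medians of 11.98 and 10.88 (difference 1.36 ± 0.39, SE, adjusted p = 0.0739). Pax5, which maintains it, had medians of 11.26 and 10.92 (adjusted p = 0.191). Of 36 B-lineage transcription factors only Sox4 was called; the median difference was 0.38, and 0.26 at 300 ng. Among 26 genes of the B-cell receptor and its proximal signalling, 4 were higher (against 1.29% of all genes) and none lower (median 0.24). At 300 ng the median was 0.13 with 0 calls, and with number series in the model of Igll1 as a number 0 of the 26 passed (median slope 0.02). They were the tetraspanin gene Cd81 (0.72), the PI3-kinase adaptor Pik3ap1 (0.59), the inositol phosphatase Inpp5d (0.52) and the exchange factor Vav2 (0.39), with adjusted p-values from 0.0179 to 0.0493; at 300 ng they differed by 0.51, 0.56, 0.35 and 0.30 in that order. Of these, the call of Inpp5d held in 18, of Vav2 in 16, of Pik3ap1 in 7 and of Cd81 in 5 of 20 fits that left out 1 array. Of 17 genes of interleukin 7 and JAK-STAT signalling, Il7r was called and no other; Stat5b differed by 0.46 (adjusted p = 0.0974) and Jak1 by 0.54 (adjusted p = 0.133).

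The genes that differed most were not all known B-cell markers. Gfra1, a receptor for glial-derived neurotrophic factor, was at 8.16, 9.40 and 11.82 in the high group and at 5.66, 5.97 and 9.28 in the low group. Only lymphoma 8773, at 9.28, lay inside the high range. Gfra1 differed by 2.84 ± 0.43 (SE, adjusted p = 0.00978), by 2.57 at 300 ng, and its slope of 0.59 was the largest of the 76 genes called in that model. Drc7, which encodes a part of the motile cilium, did not overlap between the groups: 6.19, 7.42 and 10.45 against 4.82, 5.29 and 6.14 (difference 2.32 ± 0.44, SE, adjusted p = 0.0157). Rsph9, a radial spoke gene of the same organelle, differed by 1.83 (adjusted p = 0.0306). Smim41 (1.98) and Ubash3a (1.90), the latter a regulator of antigen receptor signalling, passed in 20 of 20 fits that left out 1 array, as did the tetraspanin gene Tspan6 (1.71). The lysosomal sulfatase gene Arsb (1.76), Gm10384 (2.12) and Gm525 (1.75) passed with 1 array left out in 6, 8 and 13 of 20 fits. At 300 ng these 9 genes differed by 0.97 (Arsb) to 2.57 (Gfra1). Ccnd3, the D-type cyclin used by pre-B cells, differed by 0.86 ± 0.20 (SE, adjusted p = 0.0358) and by 0.75 at 300 ng, with lowest, median and highest values of 10.28, 10.87 and 11.58 in the high group against a low group between 9.03 and 10.91. Cdk6, which encodes a kinase partner of D-type cyclins, had a difference of 0.82 (adjusted p = 0.0616).

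Among the 35 lower genes 12 encode small nucleolar or Cajal body RNAs, of 54 such genes measured, and 2 are host genes of such RNAs. Over all genes tested 0.176% were called lower. Snora33 was at 6.06, 10.55 and 11.33 in the high group and at 10.98, 11.40 and 12.55 in the low group. The difference of -1.71 (adjusted p = 0.0372) was -0.69 at 300 ng, where no series 1 array enters. In the list of 10 small RNAs the median was -0.97 over all 20 arrays and -0.27 at 300 ng, with 2 of the 10 called over all arrays and 0 at 300 ng. Scarna13, a Cajal body RNA, was at 9.22, 10.96 and 11.86 against 11.01, 12.22 and 12.54, so the groups overlapped in part. It differed by -1.24 ± 0.22 (SE, adjusted p = 0.0130), by -0.85 at 300 ng, and passed in 20 of 20 fits that left out 1 array. The protein-coding genes Lat2, Crmp1 and Rassf4 were lower too. Lat2 encodes an adaptor of B-cell and mast-cell receptors. It was at 7.22, 8.17 and 9.38 in the high group and at 9.09, 9.78 and 11.11 in the low group, a difference of -1.45 ± 0.28 (SE, adjusted p = 0.0170). Its difference at 300 ng was -1.03, its slope of -0.28 passed (adjusted p = 0.00885), and its call held in 20 of 20 fits that left out 1 array. Crmp1 differed by -1.36 (-0.94 at 300 ng) and the RAS-association gene Rassf4 by -0.97 (-0.73 at 300 ng), with calls in 9 and 4 of 20 such fits. A530040E14Rik was also lower by limma, by -1.21 ± 0.27 (SE, adjusted p = 0.0344) and by -0.93 at 300 ng. Its slope of -0.285 passed (adjusted p = 0.0258), and its call held in 11 of 20 such fits. In CTX 4h lymphomas without series 1 it differed by -1.51 (limma, adjusted p = 0.0145).

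Genes of tumour biology were looked at next. Myc, the gene carried by the transgene, had medians of 13.36 and 13.14 (difference -0.06, adjusted p = 0.951). Cdkn2a, which encodes the tumour suppressors p16 and p19Arf and is often lost or raised in these tumours, ran from 6.54 to 10.15 in the high and from 6.79 to 10.44 in the low group (difference 0.09, adjusted p = 0.959). Bcl2 had medians of 9.30 and 9.07. None of 14 BCL2 family, 19 p53 pathway or 12 MYC network genes was called, and Ccnd3 was the 1 gene called among 17 of the G1 phase. Over all genes tested 1.29% were called higher and 0.176% lower. At those shares lists of this size hold few calls or none, so the counts do not set these genes apart. The 22 mitosis genes had a median difference of 0.22 with 0 calls, and -0.08 at 300 ng. The 300 ng high arrays include lymphoma 8740, with a mitosis score of -2.03. Scores of the other high arrays of 300 ng ran from 0.21 to 0.79, against -0.10 to 0.37 in the low group. In CTX 4h lymphomas without series 1 all 22 differences were positive (median 0.50), with 0 calls.

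Other cells of the node were followed through their markers. Over all genes tested 1.29% were called higher and 0.176% lower. Lists of this size hold few calls or none at those shares, so a list without a call is no result about these cells. None of 18 macrophage markers was called, and the macrophage score ran from -0.24 to 0.26 in the high and from -0.45 to 0.24 in the low group. None of 17 T-cell and NK-cell markers was called, with scores from -0.44 to 1.88 and from -1.05 to 1.04. None of 12 neutrophil markers was called, with scores from -0.33 to 0.64 and from -1.41 to 2.80. Their median difference was 0.39 with 10 of 12 positive (0.19 at 300 ng), and with number series in the model all 12 slopes on Igll1 were positive and none passed (median 0.21, beside 0.16 for the precursor markers). The score of salivary gland genes ran from -1.62 to 3.13 in the high and from -1.40 to 2.53 in the low group. For adipocyte markers it ran from -1.61 to 1.32 and from -1.05 to 0.94. Lymphoma 8740 had the highest of both scores in the high group. The part of these cells in the result was not tested. In bulk tissue, fewer cells of a type and less RNA per cell cannot be told apart. With the macrophage score as a term the comparison called 277 genes higher and 44 lower; with the T-cell score it called 466 and 74, and with the stromal score 152 and 12.

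**Figure D4:**
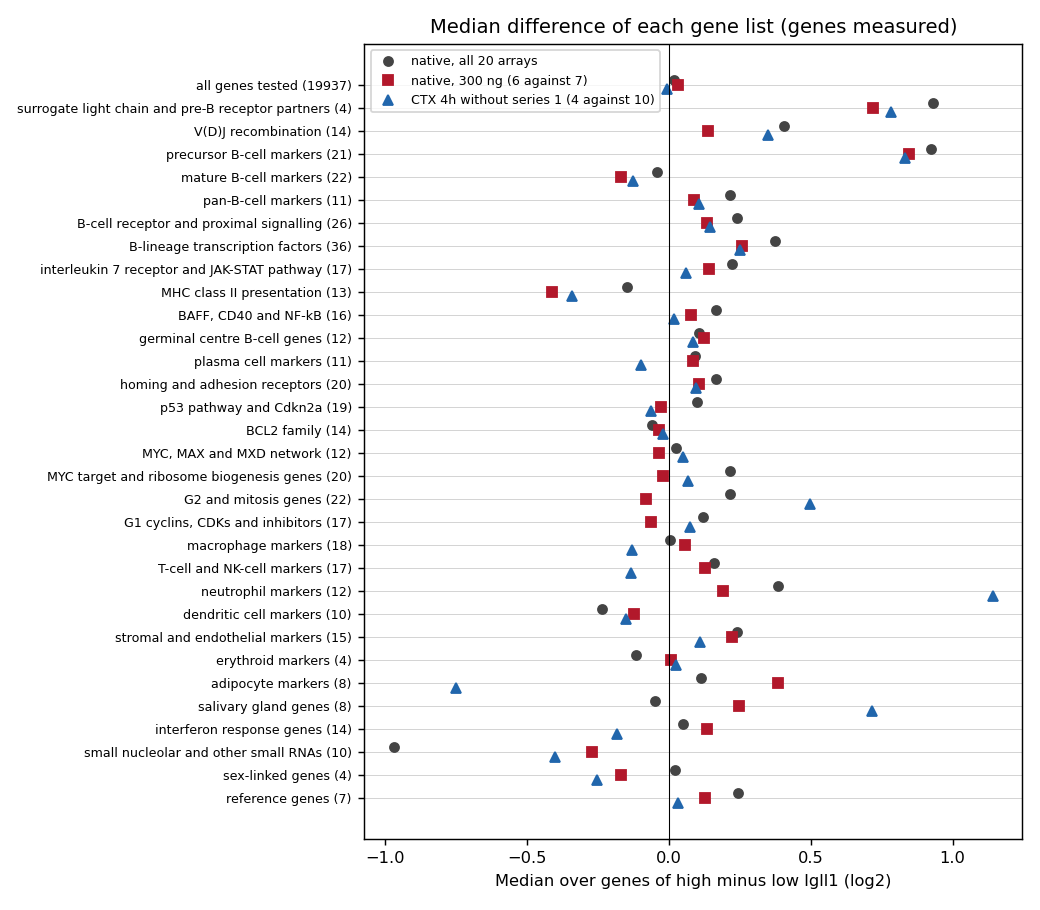
Median over the genes of each list of the log2 difference, high minus low Igll1 (x axis), for all 20 native arrays (circles), the 300 ng native arrays (squares) and the CTX 4h arrays without number series 1 (triangles); numbers of genes are in brackets. Precursor markers lie between 0.83 and 0.93 in all 3, and small nucleolar RNAs move from -0.97 to -0.27 when the 100 ng arrays are left out.

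In the CTX 4h lymphomas the rule gave 10 high and 10 low arrays, all labelled from 100 ng. Centred Igll1 ran down from 5.08, with 0.75 at the last high array and 0.58 just outside, and -0.96 at the first low array with -0.85 just outside. Of the high arrays 6 were of series 1 and of the low arrays 0, and 3574 genes were called higher (17.9%) and 2370 lower (11.9%). Without series 1, with 4 high against 10 low arrays, limma called 54 genes higher (0.271%) and 2 lower (0.01%). In that comparison, which shares no array with the native one, 255 of the 258 genes higher in native lymphomas had a positive difference and 35 of the 35 lower ones a negative difference, where 48.8% of all genes were positive. Called in both were, over all arrays, 237 of the 258 genes higher in native lymphomas, or 91.9% of that list and 6.63% of the longer CTX 4h list. For the lower genes it was 23 of 35, or 65.7% and 0.97%. Number series 1 lies in the high group of both treatments, so those overlaps are not free of it.

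Without series 1, Vpreb1 was higher in CTX 4h lymphomas with high Igll1 by 1.68 ± 0.29 (SE, adjusted p = 0.0379), Sox4 by 1.51 ± 0.28 (SE, adjusted p = 0.0439), Erg by 1.66 ± 0.30 (SE, adjusted p = 0.0424) and Arpp21 by 1.44 ± 0.27 (SE, adjusted p = 0.0465). Precursor markers had a median of 0.83 there, with 3 of 21 called, where 0.271% of all genes were called higher. Mature markers had a median of -0.13 with none called. Enpep (2.26), Bst1 (1.67) and Il7r (1.05) differed the same way but did not pass (adjusted p = 0.170, 0.430 and 0.665). MHC class II genes had a median of -0.34, with 12 of 13 negative and none called. Gfra1 (2.46), Drc7 (2.77) and Smim41 (1.54) passed, with adjusted p-values of 0.0465, 0.0145 and 0.0465. Of 12 neutrophil markers, all had positive differences there (median 1.14) and 3 were called. The granule genes Mpo (1.65) and Elane (1.16) were among those called, and in native lymphomas they were not (0.97 and 0.61, adjusted p = 0.334 and 0.492). The difference of the contrast between native and CTX 4h arrays was itself tested by an interaction term in limma, which passed for 0 genes (1452 at an unadjusted p under 0.05, smallest adjusted p = 0.641).

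**Figure D5:**
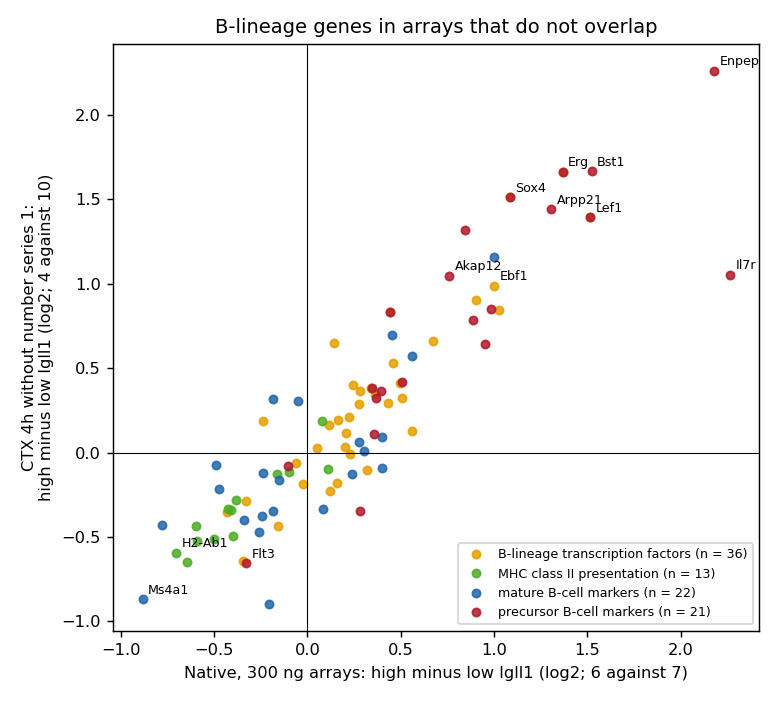
Log2 difference, high minus low Igll1, of B-lineage genes in the 300 ng native arrays (x axis, 6 against 7) and in the CTX 4h arrays without number series 1 (y axis, 4 against 10); each point is a gene, coloured by list, and genes in 2 lists show 1 colour. Precursor markers lie mostly in the upper right, Enpep at 2.18 and 2.26, while MHC class II genes lie mostly in the lower left.

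Over the 31 CTX 4h arrays the 5 genes most like Igll1 were Cass4, Trio, Top3b, P2rx3 and Arhgap10, with Pearson r between 0.81 and 0.83 after centring Igll1 within RNA input (a description; the arrays share number series). All 5 were also called in native lymphomas. P2rx3, an ATP-gated ion channel gene, was at 6.30, 6.65 and 7.28 in the native high group and at 5.20, 5.56 and 6.55 in the low group, and lymphoma 8773 alone of the low arrays reached the high range. It differed by 1.08 ± 0.15 (SE, adjusted p = 0.00423), and by 1.12 at 300 ng. The exchange factor gene Trio differed by 1.09 ± 0.17 (SE, adjusted p = 0.00978), Arhgap10 by 1.35 and Cass4, a docking protein gene, by 1.19. At 300 ng these were 1.05, 1.204 and 1.16. Cass4 is also among the 6 genes without overlap, at 6.26, 6.77 and 8.08 against 5.53, 5.74 and 5.93. The others are Asap1, Drc7, Maml3, Sharpin and Tnfrsf13c, of which Asap1, Maml3 and Sharpin are named after their values were seen.

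The 12 native lymphomas between the groups were intermediate. Median Vpreb1 there was 6.68, between 6.05 and 7.25; median Enpep was 7.22, between 5.74 and 9.39; and median Sox4 was 8.31, between 7.24 and 8.80. Median Il7r was 10.69 and median Gfra1 8.52. Single arrays departed from the order: lymphoma 9820 had Vpreb1 at 8.39, as high as any array of the high group, and Myc at 11.39, and lymphoma 1112 had Rag1 at 11.12 and Rag2 at 9.18, the highest of all native arrays.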

How the data were processed

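RNA of lymph node lymphoma cells, 100 or 300 ng of it, was labelled and hybridised to Affymetrix arrays, per the labels. What the authors deposited is on the log2 scale. Partek 6.5 and RMA are named in the submitters' processing notes; RMA corrects background, normalizes and summarises probes, which compresses differences of dim genes. The build and settings are not given in the sources used here. Array medians lay between 6.53 and 7.11, and the number of arrays limits the precision. Of 35557 probe sets, 21789 carried 1 symbol, 1621 more than 1, and for 12147 no symbol was listed. A RefSeq gene ID was found for 21698 of the 21789. For each of 19938 genes the brightest probe set of 1 symbol (mean over 63 arrays) was kept, and Igll1 was left out of the tests. Of 501 entries in 31 lists, 46 had no such probe set (Ighd and Igkc among them) and were not analysed here.

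Tests were limma 3.58.1 in R 4.3.3 (lmFit, eBayes) on the log2 values, two-sided, with RNA input as a term and Benjamini-Hochberg adjustment over 19937 genes. Score values are means of centred list members. In a simulation of the native groups (19937 genes), the model called 89 of 100 genes changed by 1 (log2), 98 of 100 changed by 2 and 11 unchanged ones. The simulated noise was independent between genes and held no number series and no outlying arrays. These rates therefore check the code and do not carry over to the real comparison. Members and lists were chosen with earlier results of these data known. The genes named were drawn from the 12 largest called differences each way with 1 sign at both RNA inputs. Further sources were B-lineage list members, the members of other lists with the smallest p, and Myc, Cdkn2a, Bcl2 and Ighm. The 5 smallest interaction p and the 5 genes most like Igll1 in CTX 4h arrays were added. Not every gene of these sources is printed. Other settings were the group size, Igll1 as a number, normalization, probe sets, dim genes, array weights, marker scores, number series and leaving out arrays. Figures were drawn with matplotlib 3.10.9.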

Additional observations from a re-analysis of the deposited data

Results flagged for a closer look

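Single arrays far from the rest of their group were looked for in 84 genes, most of them named in the report. These made 168 groups of 10 native arrays in all, tested by Dixon's ratio. Chance exceeds its limit in about 1 of 20 groups, and 18 values did so here; genes that vary together are not independent. In the high group lymphoma 8740 had 5 of them: Myc at 10.64 (next 12.95), Vpreb3 at 9.11 (next 12.15), Cdk6 at 9.25 (next 10.60), Ppm1f at 8.06 (next 9.30) and Pilrb2 at 5.43 (next 5.78). Lymphoma 9193 had the lowest H2-Ab1, 11.04 (next 12.14), and Ciita, 7.54 (next 8.49). Lymphoma 1113 had Dntt at 11.97 (next 8.46) and lymphoma 1118 had Pik3ap1 at 11.72 (next 10.94). In the low group, lymphoma 8751 had Enpep at 9.46 (next 6.95) and Drc7 at 6.14 (next 5.44). Lymphoma 8737 had Smim41 at 8.53 (next 7.47) and Elane at 10.44 (next 8.15). Lymphoma 8778 had Tspan6 at 7.95 (next 6.60) and the lowest Slc39a11, 7.90. Lymphoma 9196 had Cd79a at 8.38 (next 11.56), lymphoma 8773 had P2rx3 at 6.55 (next 5.81), and lymphoma 9205 had Jak1 at 11.79 (next 11.26). The cause of these values was not tested. Genes with the smallest p of the difference between the native and the CTX 4h contrast were Pilrb2, Esrrg, Olfr1275, Olfr1 and Slc39a11, each with an adjusted p of 0.641.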

How the results depend on the processing

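No paired analysis was possible because the replicate numbers in the titles are 1 for nearly every array and tie no array of the high group to one of the low group. The native comparison called 258 genes higher and 35 lower. Leaving out 1 array gave 51 to 2111 higher and 4 to 350 lower; 11 of the 20 arrays moved the first count by over 1.5 times and 17 the second. Leaving out lymphoma 8740 gave the highest of both. Without 8734, 8742, 8753, 9196, 8731, 8773, 9174, 1113, 1114 or 1120 in turn 51 to 164 genes were higher and 4 to 19 lower. Without 8778, 9193 or 1118 in turn 16 to 18 were lower, and without 8747, 9194 or 9205, 53 to 78. Counts of 0 higher and 0 lower came with the number series (first digit) as a term (1058 genes at an unadjusted p under 0.05), 300 ng arrays alone (1041), both together (917), series 1 left out (1135), series 1 and lymphoma 8740 left out (2178), and the small nucleolar RNA score as a term (881), all by limma. Without lymphomas 9174 and 9196 they were 17 and 1. That setting, those without series 1, those with both 300 ng and first digit or with Igll1 as a number and first digit, and the small RNA score were chosen after seeing the data. Without series 1 every high array is of 300 ng, so with RNA input in the model the difference rests on the 300 ng arrays. With the first digit as a term the series 1 arrays, all high, do not inform it. The zero counts of these settings are therefore not separate checks. Higher and lower counts were 1328 and 207 with 8 arrays per group, 2227 and 1086 at 100 ng, 94 and 21 with a common median, 131 and 108 with quantile normalization, and 2347 and 861 with array weights. They were 466 and 74 with the T-cell score, 152 and 12 with the stromal score, 1380 and 165 without the 2 arrays lowest in Myc, 62 and 9 with a difference of at least 1, and 56 and 20 with Igll1 as a number and the first digit. Higher genes were 129 ranked on deposited Igll1 and 160 with trend and robust; lower genes were 53 with 12 per group, 95 with Igll1 as a number and 20 without RNA input.

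For CTX 4h (3574 and 2370) leaving out 1 array gave 2687 to 3997 higher and 1550 to 2959 lower; lymphomas 1124 (1550) and 1127 (1565) moved the latter by over 1.5 times. Counts were 1522 and 724 with 8 per group, 1 and 0 with the first digit, 0 and 0 with the small RNA score (1150 at an unadjusted p under 0.05), 54 and 2 without series 1, 154 and 18 with Igll1 as a number and the first digit, and 269 and 91 with a difference of at least 1. Quantile normalization gave 1407 higher, and leaving out dim genes 417 lower. The causes were not tested. The interaction had 0 calls under both alternatives. Of 47 genes refitted in native lymphomas, most of them named above, 0 of those called changed sign under these settings.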
